A study of Camponotus floridanus with 48 samples.

Results

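Short messenger RNAs that code for protein and are present at high level were followed in 48 female larvae of Camponotus floridanus, the Florida carpenter ant, each taken as a whole body. Members were chosen by transcript length and by mean level. They are all RefSeq coding transcripts of at most 600 bases whose mean over the 48 larvae was at least 20 TPM, a measure of abundance per length that has the same sum in each library. This gave 204 transcripts of 189 genes, out of 659 coding transcripts of that length and 26315 transcripts in all. The other 455 short coding transcripts had a mean under 20 TPM. All larvae were of the terminal larval stage and from 1 colony, with no treatment named in the labels. Each was sequenced as its own library from polyadenylated RNA, and the larvae form 1 group ordered by body length from 4648.07 to 7598.06 µm. The study asked which molecular differences accompany the size of workers in this species. Values are also described in 3 sets of larvae, namely the 16 shortest (up to 5376.84 µm), the 16 of intermediate length and the 16 longest (from 6689.42 µm).

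Workers of this ant come in a wide range of body sizes, and adult size is set by growth during larval life, because an adult ant no longer grows. The last larval stage is a feeding and growing stage that ends in metamorphosis. In animals generally, short and abundant messages often code for proteins of the ribosome, small subunits of the mitochondrial respiratory chain and small secreted proteins such as those of the cuticle or of immune defence. The annotation used here gives each of the 204 transcripts a locus symbol and the class protein-coding, with no product, so the members are reported by symbol and their functions are not given. No sequences of them were used.

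The libraries held 6608777 to 63171583 estimated reads. The shallowest were those of larvae No. 43 with 6608777 reads and No. 42 with 8928640, which belong to the 16 longest, and the next had 29813779. Behind a member stood a median of 1353 reads per library, with medians of single members from 26 to 194876. On the first principal component of gene expression, 15 libraries had scores above 20 and stood apart from the other 33. They came from 2 of the 16 shortest larvae, 8 of the 16 intermediate ones and 5 of the 16 longest, and the labels name no batch. Results that rest on these 15 libraries are given with and without them. Fewer cells of a type and less RNA per cell cannot be told apart in whole bodies.

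The 204 transcripts spanned levels from 22.1 to 14904 TPM in the mean over larvae, with a median of 136 TPM. Of these, 41 reached 1000 TPM, 77 lay between 100 and 1000, and 86 between 20 and 100. Among the 100 most abundant coding transcripts of any length, 31 belonged to this set. The level chose the members, so these values are a description. Together they made up 11.1% of a library's TPM in larva No. 33, a median of 13.7%, and 17.7% in larva No. 9. That share was 14.7% ± 1.44 in the 16 shortest larvae, 13.6% ± 1.65 in the 16 intermediate ones and 13.2% ± 1.03 in the 16 longest (SD), so the groups overlapped. It ran from 11.9% to 16.6% in the 33 libraries and over the whole range in the 15. Member length was 239 to 600 bases with a median of 534.5. The 13 members under 400 bases had a median level of 163 TPM, the 50 from 400 to 499 bases 125 TPM, and the 141 longer ones 139 TPM.

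**Figure D1:**
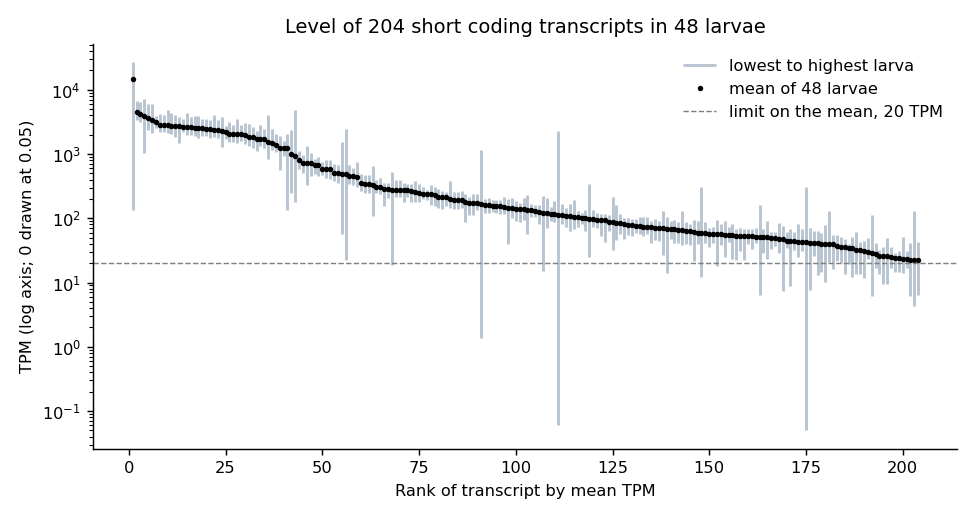
Level of the 204 short coding transcripts, ranked by their mean over 48 larvae (x axis) with TPM on a log y axis. Dots are means, vertical bars run from the lowest to the highest larva, and the dashed line is the limit of 20 TPM on the mean. A single transcript stands at 14904 TPM, 41 reach 1000, and a few bars reach down by more than 10-fold.

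At the limits of the set, the 3 members of lowest mean were LOC105258372 at 22.1 ± 8.78 TPM, LOC105257551 at 22.1 ± 19.6 and LOC105249350 at 22.3 ± 9.38 (SD, n = 48). Just outside were LOC105250099 at 19.7 ± 5.29 TPM, a transcript of LOC112637743 at 19.6 ± 4.87 and LOC109610047 at 19.5 ± 3.91. On the length limit, members of 600 bases belonged to LOC105249847, LOC105251040 and LOC105251436. Their nearest longer neighbours were LOC109610343 and LOC105255008 at 601 bases and LOC105254982 at 602.

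The most abundant member by far was the transcript of LOC105254510. Its level was 135 TPM in the lowest larva, 17971 TPM in the median larva and 26646 TPM in the highest. On its own it held 10.8% of the summed level of all 204 transcripts, and the 10 most abundant held 33.4%. Without it, the share of a library taken by the other members ran from 9.72% to 16.9% around a median of 12.1%. In the 33 libraries LOC105254510 kept to 12563 to 26646 TPM. In the 15 libraries it ran from 135 to 11031 TPM, so the ranges did not overlap. Between short and long larvae they did overlap, with 8681 to 25020 TPM in the 16 shortest and 463 to 26646 TPM in the 16 longest. The slope of this transcript with length did not pass the test (-0.15 ± 0.21 log2 per mm, SE, edgeR adjusted p = 0.760).

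The next most abundant members were far steadier. LOC105254611 had 3322 TPM in the lowest larva, 4421 TPM in the median and 6648 TPM in the highest. LOC105257496 followed with 3186, 4088 and 6413 TPM. In both, the lowest larva was No. 32 and the highest was No. 9. LOC105257527, next in mean level, was more variable, with 1034 TPM in the lowest larva, 4325 in the median and 7131 in the highest. LOC105256583 had 2404, 3442 and 6045 TPM in the same order, and LOC105258187 had 2145, 3182 and 6090 TPM. These 2 members shared both their lowest larva, No. 79, and their highest, No. 4. LOC105256222 had the narrowest range of the 10, from 2521 TPM over 3084 to 3885. LOC105259213 ran from 2220 TPM over 2734 to 4265, LOC105250761 from 2176 over 2716 to 4094, and LOC105253724 from 2085 over 2708 to 4818. Apart from LOC105254510 and LOC105257527, these members stood at 2085 TPM or more in every larva.

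Spread between larvae was small for most of the set. The coefficient of variation (SD divided by the mean) had a median of 0.169 and ran from 0.0869 to 3.66. It was under 0.2 for 134 members, between 0.2 and 0.5 for 58 and over 0.5 for 12. In the 33 libraries the median was 0.126. Over all transcripts that passed the filter on low counts it was 0.484, over coding transcripts longer than 600 bases with at least 20 TPM it was 0.251, and over short coding transcripts under 20 TPM it was 0.571. These figures are set side by side without a test, since a limit on the mean chose the members. The highest larva exceeded the lowest by a median of 2.11-fold, by less than 2-fold for 81 members, by less than 3-fold for 150 and by more than 10-fold for 16, which includes 1 member listed at 0 in a larva. Within the 33 libraries the median was 1.70-fold and 147 members stayed under 2-fold. In 168 members even the lowest larva had at least 20 TPM. TPM is divided by an effective length that is estimated for each library. For a member this length differed between libraries by a median of 1.27-fold and by up to 1.59-fold. Its part in the level and the spread was not tested.

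**Figure D2:**
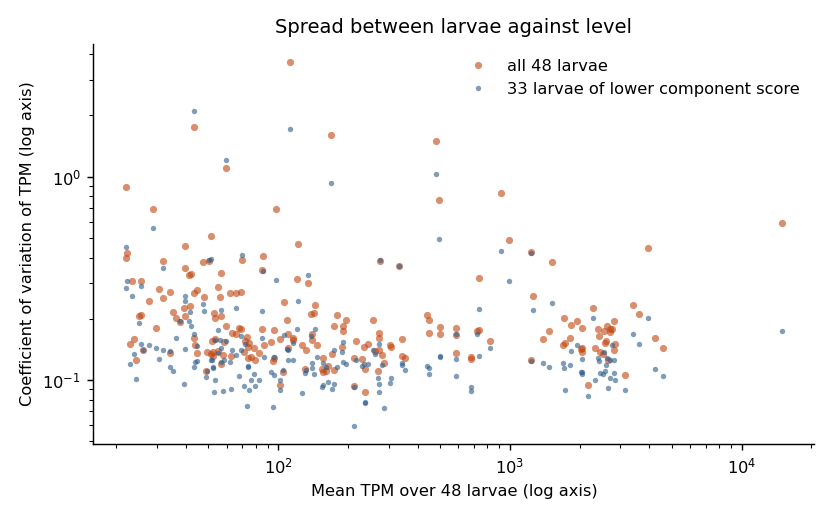
Coefficient of variation of TPM (log y axis) against mean TPM (log x axis) for each of the 204 transcripts, over all 48 larvae and over the 33 libraries of lower component score. Most points lie near 0.1 to 0.2 at every level, with 12 members above 0.5 over all larvae.

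The steadiest members by this measure were found at several levels. LOC105253046 ran from 190 TPM over a median of 235 to 277 TPM. LOC109610058 ran from 154 TPM over 215 to 254 TPM. LOC105258413 ran from 82.8 TPM over 103 to 121 TPM. All 3 kept within a 2-fold range over larvae whose lengths covered the whole series. Among the members of over 1000 TPM, LOC105259290 ran from 1721 TPM over 2126 to 2683, and LOC105256222, described above, had a coefficient of variation of 0.106. The mean of LOC105253046 was 237 ± 20.2 TPM in the 16 shortest larvae, 238 ± 19.1 in the 16 intermediate ones and 233 ± 23.0 in the 16 longest (SD). The slopes of the 5 steadiest members with length did not pass the test, and lay between 0.03 and 0.10 log2 per mm.

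The most variable members were low in some larvae and abundant in others. LOC105249847 had 0.0612 TPM in larva No. 20, a median of 6.34 TPM and 2239 TPM in larva No. 32. Its mean of 113 TPM, which placed it in the set, thus lay far above its median. LOC105251664 was listed at 0 in larva No. 20, had a median of 2.76 TPM and reached 305 TPM in larva No. 32. It was the only member with no read in a library. LOC105256545 ran from 1.36 TPM over 32.3 to 1148 TPM. LOC105258377 ran from 22.0 TPM over 57.6 to 2453 TPM, and both had their highest value in larva No. 31. LOC105256267 ran from 12.2 TPM over 37.6 to 308 TPM. In the 33 libraries the highest values were 128 TPM for LOC105249847, 44.7 for LOC105251664, 92.0 for LOC105256545 and 341 for LOC105258377. For LOC105256267 it was 260 TPM, beside 308 over all larvae. Besides LOC105249847 and LOC105251664, LOC105257551 and LOC105258372 also had a median under 20 TPM.

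Extreme values were spread over many larvae, with some larvae holding more of them than others. The lowest level of a member was found in 32 different larvae and the highest in 37, and the 4 larvae with most held 109 members in each case. Larva No. 79 held the lowest level of 32 members, No. 32 that of 28, No. 4 that of 25 and No. 43 that of 24. Larva No. 9 held the highest level of 40 members and No. 4 that of 39. Larva No. 4 was thus the highest for some members and the lowest for others. The 15 libraries held the highest value of 140 of the 204 members and the lowest value of 80. Their part in the spread is shown by the values without them, given above.

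**Figure D3:**
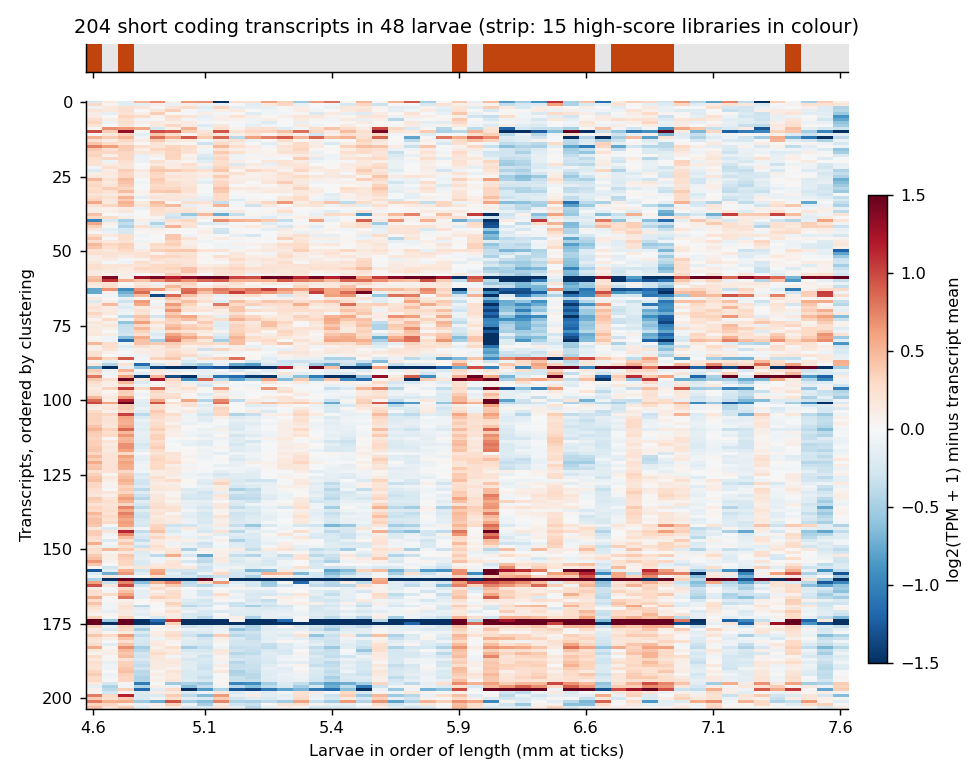
Level of the 204 short coding transcripts (rows, ordered by clustering) in 48 larvae (columns, in order of length with mm at the ticks), as log2(TPM + 1) minus the mean of each transcript. Colour runs from 1.5 below to 1.5 above that mean, and the strip marks the 15 libraries with a component score above 20, 8 of which come from larvae of intermediate length.

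Members varied together only in part. The Pearson correlation of log2(TPM + 1) over the 48 larvae, taken over all 20706 pairs of members, had a median of 0.269, with 4.78% of pairs above 0.8. Over the 33 libraries the median was 0.273 and 3.67% of pairs exceeded 0.8. On the scale of log2 CPM, counts are scaled by library size and a TMM factor per library and are not divided by length. There the medians were 0.739 and 0.591. All members share the same libraries and their depth, so these values describe the libraries as well as the transcripts, and the scale decides how high they are. Against the mean of the other members, 44 transcripts had a correlation above 0.7 and 20 had one below 0 on the TPM scale, and in the 33 libraries these were 68 and 26. Over all 48 larvae, 8 of the 10 most abundant members had values of 0.746 to 0.859, while LOC105254510 had 0.10 and LOC105257527 had -0.18.

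Body length was tested as a slope in edgeR on the estimated counts of all 19714 transcripts that passed the filter, with p-values adjusted over all of them. A slope is a log2 change in scaled counts per mm of body length. Of the 204 members, all of which passed the filter, 9 rose with length and 4 fell, at an adjusted p under 0.05. This is 4.41% rising beside 7.16% of all transcripts tested, and 1.96% falling beside 6.48%. The members' shares lay below both backgrounds. The rising members include LOC105249847, which met the limit on the mean only through larvae where it was high. Their median slope was 0.05 log2 per mm beside -0.0048 over all transcripts, and 145 of the 204 slopes were positive (71.1% beside 48.7%). Slopes were mostly small, with 189 members under 0.25 log2 per mm in size. By comparison, of the 4339 coding transcripts over 600 bases with at least 20 TPM, 13.1% rose and 10.6% fell.

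Without the 15 libraries the balance of signs turned. In the remaining 33 larvae, 8 members rose (3.92% beside 7.40% of all transcripts) and 20 fell (9.80% beside 8.76%). The median slope was -0.016 log2 per mm beside -0.0027 over all transcripts, and 76 slopes were positive (37.3% beside 49.3%). Of the 4338 coding transcripts over 600 bases with at least 20 TPM tested in the 33 larvae, 13.4% rose and 19.1% fell. The slope of 184 members was lower without the 15 libraries than with them, and 73 members went from a positive to a negative slope. Of the calls, 7 rising and 3 falling ones were made in both fits. Leaving out the shallow libraries No. 42 and No. 43 as well gave 3 rising and 22 falling members. Over all transcripts, 1027 rose and 1232 fell in that fit, beside 1454 and 1722 in the 33 larvae. Within the 15 libraries alone, 0 members passed the edgeR test, beside 0.188% of all transcripts called. At an unadjusted p under 0.05 there were 10 members (4.90%), beside 1851 of all transcripts (9.41%). Only edgeR was run on these libraries alone.

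The direction also depended on the scale. With limma on log2(TPM + 1), 11 members rose (5.39%) and 49 fell (24.0%) in all 48 larvae, beside 4.58% and 16.0% of all transcripts. Of the 4339 coding transcripts over 600 bases with at least 20 TPM, 7.44% rose and 25.5% fell on this scale. The median slope of the members was then -0.058 log2 per mm and that of all transcripts -0.065. In the 33 larvae this scale gave 10 rising members (4.90%) and 46 falling ones (22.5%), beside 5.95% and 11.3% of all transcripts. Among coding transcripts over 600 bases with at least 20 TPM, 10.03% rose and 23.1% fell in that fit. The falling share of the members was thus close to that of longer coding transcripts of such levels. All 20 members that fell in the 33 larvae by edgeR also fell there by limma on log2(TPM + 1), as did 6 of the 8 that rose. The libraries differed in how expression ran with transcript length, from -0.43 to -0.015 log2 per doubling of length in the 15 and from -0.26 to 0.30 in the 33. With this trend as a covariate, 12 members rose and 45 fell in all 48 larvae. Over all transcripts, 1991 rose and 2081 fell in that fit, beside 1412 and 1277 without the covariate.

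**Figure D4:**
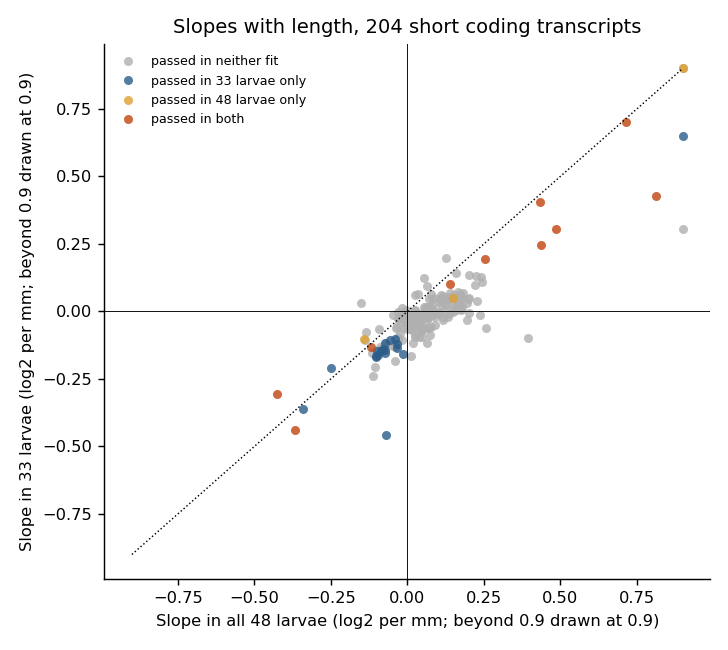
Slope with body length (log2 change in scaled counts per mm) in the 33 larvae of lower component score (y axis) against the slope in all 48 larvae (x axis) for the 204 transcripts, with slopes beyond 0.9 drawn at 0.9. Colours mark in which fit a slope passed an adjusted p of 0.05, and the dotted line marks equal slopes. Of the 204 points, 184 lie below the line.

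Among the rising members, LOC109609825 had the smallest p. Its level was 57.0 TPM in the lowest larva, 133 TPM in the median and 231 TPM in the highest. The 16 shortest larvae had 57.0 to 147 TPM and the 16 longest 126 to 231 TPM, so the groups overlapped in a narrow band, and all 16 of the longest exceeded the shortest larvae's median. The means were 101 ± 26.5 and 167 ± 28.9 TPM (SD, n = 16 each), a 1.65-fold difference. The slope was 0.43 ± 0.08 log2 per mm (SE, edgeR adjusted p = 0.000231), and 0.40 ± 0.06 in the 33 larvae (adjusted p = 3.8e-05). Of 21 alternative fits, 20 kept it past the threshold, and the exception was the fit on the 15 libraries alone.

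LOC105250937 rose from a higher level, with 448 TPM in the lowest larva, 710 in the median and 1031 in the highest. The 16 shortest larvae had a mean of 652 ± 60.5 TPM and the 16 longest one of 806 ± 115 (SD), with 15 of the longest above the shortest larvae's median. The slope was 0.25 ± 0.06 log2 per mm (adjusted p = 0.00459), and 0.19 ± 0.04 in the 33 larvae (adjusted p = 0.00192). LOC105256102 ran from 333 TPM over 672 to 1312 TPM. Its lowest and highest larvae, No. 35 and No. 32, were both of intermediate length, and 15 of the 16 longest exceeded the shortest larvae's median. The slope of 0.44 ± 0.12 (adjusted p = 0.00771) was 0.24 ± 0.06 in the 33 larvae (adjusted p = 0.00352).

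LOC105257120 was a member of low level, with 13.8 TPM in the lowest larva, 30.6 in the median and 60.6 in the highest. Its slope was 0.48 ± 0.12 log2 per mm (adjusted p = 0.00317) over all larvae and 0.30 ± 0.09 in the 33 (adjusted p = 0.0182). LOC105249879 ran from 56.1 TPM over 357 to 1558 TPM. Its mean was 250 ± 114 TPM in the 16 shortest larvae, 684 ± 515 in the 16 intermediate ones and 544 ± 263 in the 16 longest (SD), so the intermediate larvae were the highest and the most scattered. The slope of 0.81 ± 0.24 (adjusted p = 0.0139) was 0.43 ± 0.11 in the 33 larvae (adjusted p = 0.00704). LOC105256267, one of the most variable members, had 28.7 ± 19.1 TPM among the 16 shortest and 78.6 ± 75.2 TPM among the 16 longest larvae (SD). Its slope was 0.72 ± 0.20 (adjusted p = 0.00889), and 0.70 ± 0.23 in the 33 larvae (adjusted p = 0.0340).

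These calls did not hold in every fit. None of the 5 passed in the 15 libraries alone. Without the 15 libraries and No. 42 and No. 43, the adjusted p was 0.0632 for LOC105250937, 0.0543 for LOC105256102, 0.190 for LOC105257120, 0.0917 for LOC105249879 and 0.114 for LOC105256267. Without the 20 libraries of high score on transcripts, it was 0.119 for LOC105257120, 0.0589 for LOC105249879 and 0.0705 for LOC105256267. With those 20 as a covariate it was 0.0713 for LOC105249879, and in the 33 larvae on log2(TPM + 1) it was 0.122 for LOC105256267.

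Of the other 3 rising calls, the first 2 were lost in the 33 larvae. The slope of LOC105249847 was the steepest of the set at 3.53 ± 0.71 log2 per mm (adjusted p = 0.000416), but 1.11 ± 0.40 in the 33 larvae, where it did not pass (adjusted p = 0.0532). Its median over all larvae lay under the limit of 20 TPM. It thus entered the set through the larvae where it was high, so its slope is a description. The 16 shortest larvae had a mean of 7.72 ± 10.1 TPM and the 16 longest one of 176 ± 450 (SD), with medians of 3.84 and 32.8 TPM, so in the longest larvae the mean lay far above the median. The 538-base transcript of LOC105256216 had a slope of 0.15 ± 0.04 (adjusted p = 0.0141) and of 0.05 ± 0.02 in the 33 larvae (adjusted p = 0.124). Its TPM had medians of 284 in the 16 shortest and 296 in the 16 longest larvae, and limma on log2(TPM + 1) gave an adjusted p of 0.416. LOC105259186, the remaining call, lay close to the threshold (0.14 ± 0.05, adjusted p = 0.0479) and had 0.10 ± 0.03 in the 33 larvae (adjusted p = 0.0236).

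LOC105257125 fell most steeply among the falling calls. It had 15.0 TPM in larva No. 32, a median of 138 TPM and 220 TPM in larva No. 22, one of the 16 shortest. The 16 shortest larvae had 139 to 220 TPM and the 16 longest 35.7 to 139 TPM, so the 2 groups met only at their edges. Each of the 16 longest was under the shortest larvae's median. The means of 168 ± 23.3 and 89.4 ± 35.3 TPM (SD) differed 1.88-fold. The slope was -0.43 ± 0.09 log2 per mm (adjusted p = 0.000576), and -0.31 ± 0.05 in the 33 larvae (adjusted p = 1.9e-05).

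LOC109610525 fell by less, with little scatter among the 16 shortest larvae. It ran from 86.4 TPM over 193 to 241 TPM, with 209 ± 10.7 TPM among the 16 shortest and 164 ± 26.8 TPM among the 16 longest larvae (SD). The slope was -0.12 ± 0.03 log2 per mm (adjusted p = 0.00322) and -0.13 ± 0.03 in the 33 larvae (adjusted p = 0.0031). LOC105257760 was the only falling call among members of over 1000 TPM, running from 137 TPM over 1170 to 2057 TPM. Its lowest larva, No. 46, was the shortest of the 16 longest, of which 15 were under the shortest larvae's median. The mean fell from 1622 ± 349 to 846 ± 390 TPM (SD), with a slope of -0.37 ± 0.11 (adjusted p = 0.0236) and of -0.44 ± 0.13 in the 33 larvae (adjusted p = 0.0150). The 545-base transcript of LOC105250587 ran from 25.4 TPM over 56.7 to 91.9 TPM. Its slope of -0.14 ± 0.04 (adjusted p = 0.0188) was -0.10 ± 0.05 in the 33 larvae (adjusted p = 0.159), and the call was lost without larva No. 15 (or, in a separate fit, No. 22), with adjusted p up to 0.0531.

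**Figure D5:**
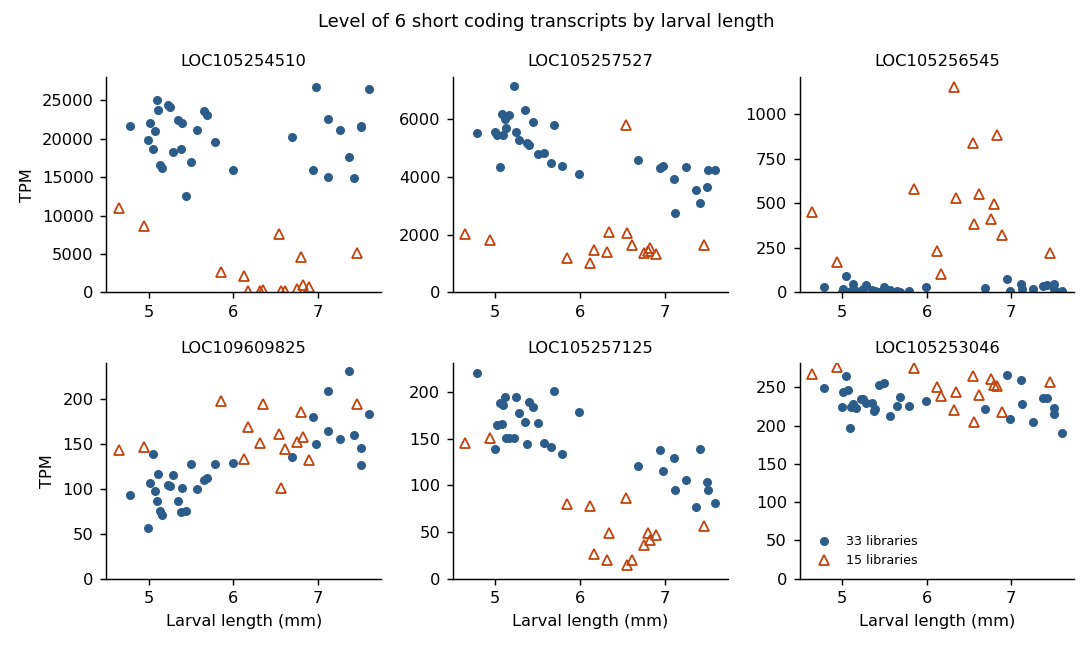
TPM of 6 of the transcripts (linear y axes from 0) against larval length in mm (x axes), 1 point per larva. Filled circles are the 33 libraries of lower component score and open triangles the 15 others. LOC109609825 rises and LOC105257125 falls with length, LOC105253046 stays between 190 and 277 TPM, and in LOC105254510 and LOC105256545 circles and triangles do not overlap.

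LOC105257527, one of the 10 most abundant members, lay just outside the threshold in all 48 larvae, with a slope of -0.25 ± 0.09 log2 per mm (adjusted p = 0.0548). The 16 shortest larvae had 5216 ± 1425 TPM and the 16 longest 3143 ± 1267 (SD), a 1.66-fold difference, and each of the 16 longest was under the shortest larvae's median. In the 33 larvae it fell by 0.21 ± 0.05 log2 per mm and passed (adjusted p = 0.0031), over a range of 2731 to 7131 TPM. In the 15 libraries it ran from 1034 to 5773 TPM around a median of 1529, with a slope of 0.16 that did not pass (adjusted p = 0.907). Leaving out any of 10 single larvae was enough to bring the fit over all larvae past the threshold. LOC105249166 also passed in the 33 larvae but not in all 48. Its slope was -0.10 ± 0.05 over all larvae (adjusted p = 0.138) and -0.17 ± 0.04 in the 33 (adjusted p = 0.00693). Unlike LOC105257527, it passed in 0 of the 48 fits that leave out a single larva. Its slope in the 15 libraries stayed negative and did not pass (-0.047, adjusted p = 0.934). LOC105255973 and LOC105253625 had slopes of -0.093 and -0.14 log2 per mm over all larvae (adjusted p = 0.0913 and 0.0952) and did not pass in the 33 either (adjusted p = 0.229 and 0.122).

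Among the 33 larvae alone, falling calls were found among members of high and of low level. They made up 9.80% of members, beside 8.76% of all transcripts and 19.1% of longer coding transcripts of at least 20 TPM. These members are named for the size of their slope after their values were seen. LOC105252443 had the steepest negative slope, -0.46 ± 0.10 log2 per mm (adjusted p = 0.000865), but -0.07 in all 48 larvae (adjusted p = 0.903). Its level had a median of 842 TPM and ran from 181 to 4808 TPM. At the low end, LOC105257551, with a mean of 22.1 TPM and a median under 20, had a slope of -0.36 ± 0.12 (adjusted p = 0.0414). The other falling slopes in the 33 larvae lay between -0.17 and -0.10, apart from those of LOC105257760, LOC105257125 and LOC105257527 given above. In the other direction LOC105258377 passed in the 33 larvae (0.65 ± 0.16, adjusted p = 0.00505) but not in all 48 (1.14 ± 0.52, adjusted p = 0.151). By level, 2 of the 41 members of over 1000 TPM fell in the 33 larvae and 0 rose, 10 of the 77 members of 100 to 1000 TPM fell and 5 rose, and 8 of the 86 members under 100 TPM fell and 3 rose. No share over all transcripts was taken by level, so these counts are a description.

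Many members had a curved relation with length over all 48 larvae. The 2 terms that a natural spline adds to a line passed in edgeR for 166 of the 204 members (81.4%), beside 29.8% of all transcripts tested. Of the 4339 coding transcripts over 600 bases with at least 20 TPM, 52.5% were curved, so much of this was shared by longer transcripts of such levels. In 159 of the 166 curved members the 16 intermediate larvae had a higher mean log2 CPM than the other larvae, and in 7 a lower one. Over all curved transcripts 59.6% were higher in the intermediate larvae, beside 95.8% of the curved members. Of the 15 libraries that stood apart, 8 came from intermediate larvae. Without the 15 libraries, 0 members and 0 of all 19661 transcripts tested were curved (background 0%) in edgeR. At an unadjusted p under 0.05, 0 members and 339 transcripts were. Both are fewer than this threshold passes on average where nothing is curved, so these 0 calls do not show that curves were absent. With the 15 libraries as a covariate, 0 members were curved as well, and a single quadratic term in place of the spline gave 1 member.

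The curve was found at every level and length within the set. It passed for 37 of the 41 members of over 1000 TPM, 73 of the 77 from 100 to 1000 TPM and 56 of the 86 below. By transcript length it passed for 8 of the 13 members under 400 bases, 41 of the 50 from 400 to 499 and 117 of the 141 longer ones. The steadiest members in TPM were among them, such as LOC105253046 (adjusted p = 0.000222), whose mean TPM in the 3 sets of larvae differed by less than 1 SD. Curves were tested on counts scaled by library size and TMM factors. Those means are in TPM, which is divided by effective length and has the same sum in each library.

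In 4 members the range of TPM in the 15 libraries did not overlap that in the other 33. They were picked after their values were seen. The 2 that were higher there and the 2 that were lower stand beside 0.112% and 0.193% of all transcripts tested. These libraries were themselves set apart by their expression, so the values are a description. LOC105254510, described above, and LOC105248247 were lower in the 15. LOC105248247 ran from 245 to 767 TPM there and from 786 to 2359 TPM in the 33. LOC105256545 and LOC105258631 were higher, with 105 to 1148 TPM against 1.36 to 92.0 for the first and 155 to 204 TPM against 102 to 152 for the second. More broadly, 89.7% of members had a higher mean in the 15 than in the 33 libraries on the scale of log2 CPM, beside 46.5% of all transcripts tested. On the scale of log2(TPM + 1) it was 58.3% beside 23.4%. All members are short, and expression relative to the mean of all larvae fell with transcript length in each of the 15 libraries. This trend had a median of -0.23 log2 per doubling of length there and of 0.13 in the 33. Its part in these shares was not tested. Over all 48 larvae the slopes of these 4 transcripts with length did not pass the test.

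Most members were the sole annotated transcript of their gene, and 149 of the 204 had no other isoform. Of the other 55, 34 held more than 50% of their gene's reads on average. In 14 genes at least 2 transcripts were members, 29 transcripts in all, which gave 16 pairs. Reads that fit several isoforms are divided between them by estimation, so levels within such a gene are less certain. The correlation of log2(TPM + 1) within a pair ran from -0.12 to 0.85 with a median of 0.414, over 48 larvae that both transcripts share. The pair of LOC109610254 was the most alike (r = 0.849), with 2393 ± 425 TPM for the 423-base transcript and 196 ± 38.7 for the 417-base one (SD). The pair of LOC105258208 was the least alike (r = -0.12), with 2694 ± 478 TPM for the 562-base transcript and 1527 ± 580 for the 520-base one. In LOC105249114 the 545-base transcript held 61.2% ± 8.42 of the gene's reads and the 599-base one 38.8% ± 8.42 (SD), with r = -0.049.

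LOC112637743 was the only gene with 3 members, of 481, 475 and 498 bases. They had 111 ± 15.9, 68.9 ± 12.3 and 55.1 ± 7.69 TPM in that order (SD, n = 48), and held 43.4%, 26.5% and 22.9% of the gene's reads. In 3 cases, members of different genes stood next to each other in the gene order. LOC105255238 had a mean of 2040 TPM and its neighbour LOC105255239 63.5 TPM (r = 0.284). LOC105256448 and LOC112637036 had 25.7 and 43.2 TPM (r = -0.088), and LOC105250755 and LOC109609960 had 109 and 95.9 TPM (r = 0.0686). In the 33 libraries the correlations were 0.236, 0.144 and 0.415 in the same order of pairs. The levels were thus far apart in the first pair and close in the last, and each correlation rests on larvae that both transcripts share.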

How the data were processed

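Whole larvae, 48 in number, gave polyadenylated RNA for libraries that keep the strand, per the labels. Tools named in the submitters' processing notes are Salmon, Trim Galore 0.6.7, bcl2fastq 2.20, DESeq2 and DESeq, without their roles. Index, strand setting and genome build of the quantification: not given in the sources used here. For each larva the authors deposited a salmon quantification with estimated counts (expected counts) per transcript, effective lengths, and TPM values scaled by those lengths, per the file headers. The authors also deposited 1 normalized signal table for all larvae, which served only for an alternative. That table lists 26314 transcripts, with 1 cell holding no number and 0 columns from other samples.

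Transcripts were matched to genes through the RefSeq table of Cflo_v7.5, and all 204 members matched by accession. Members and tests were chosen with earlier results of these data known. Of the 26315 transcripts, 1 names no gene and was left out. Estimated counts were rounded and fitted for all 48 larvae with edgeR 4.0.16 in R 4.3.3 (filterByExpr, TMM factors, quasi-likelihood F test), with length in mm as the covariate and Benjamini-Hochberg adjustment over all transcripts at 0.05. SEs were taken as slope over the square root of F. Curves were tested as the 2 terms that a natural spline of 3 degrees of freedom adds to a line. Alternatives used DESeq2 1.42.0 and limma 3.58.1 with pseudocounts of 1 and 0.1. Principal components used log2 CPM with a prior count of 2. Heat map rows were ordered by average linkage on correlation. Tables and figures used Python 3.11.15, pandas 2.3.3 and matplotlib 3.10.9. Scripts were tested on simulated data.

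Each larva is a separate animal, and no batch is labelled. The 15 libraries that stand apart were chosen by a first-component score on gene sums above 20. Named members are the 10 of highest mean TPM, the 8 rising and 8 falling of smallest p, the 5 of highest and 5 of lowest coefficient of variation, and 3 on each side of each limit, which left 32 members beside those at the limits. Planned classes by product name and by sequence were not made, since no product names or sequences were used here, and planned families were not formed for the same reason. Precision is limited by reads per member, and intervals between larvae include the animals' own variation.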

Additional observations from a re-analysis of the deposited data

How the results depend on the processing

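Counts of rising members went from 9 to 19 with DESeq2, 17 with counts summed per gene, 21 without the 2 longest and 2 shortest larvae, 0 in only the 15 libraries that stood apart, and 3 without these and No. 42 and No. 43. Counts of falling members went from 4 to 49 and 52 with limma on log2(TPM + 1) and log2(TPM + 0.1), 40 without 20 libraries with a high first component over transcripts, 31 with those 20 as a covariate, 45 with each library's trend over transcript length as covariate, 20 without the 15, 0 in only the 15, 14 with the 15 as a covariate, 19 and 46 without the 15 by RLE factors and by log2(TPM + 1), and 22 without the 15, No. 42 and No. 43. Over all transcripts, 1412 rising became 902 and 770 with log2(TPM + 1) and log2(TPM + 0.1) and 1 in only the 15, and 1277 falling became 3162 and 2918 on these scales, 2081 with the trend, 36 in only the 15, and 2237 without the 15 on log2(TPM + 1). The 166 curved members became 0 without the 20 or the 15 libraries, 2 with the 20 or the trend as a covariate, 0 with the 15 as a covariate and 1 with a quadratic term. The slope of LOC105257527 turned to 0.16 in only the 15 libraries. The cause of these moves was not tested. The fits that leave libraries out also held fewer larvae. Leaving out each larva in turn gave 8 to 16 rising members (15 without No. 76, 16 without No. 79) and 3 to 7 falling ones (7 without No. 4). The alternatives with the 15 libraries and the single larvae were chosen after seeing the data. For the 16 members named for a slope, 268 of 336 alternative fits kept the direction and the side of the threshold, 39 lost the call, 28 gained one and 1 reversed. For the 16 members named for level or spread, 30 of 336 fits passed the threshold and 116 had the other sign. No paired analysis was possible because the larvae form 1 group with no shared replicate numbers. Reads per member limit the rare transcripts, with a median of 26 reads for LOC105251664.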
